A study of Homo sapiens with 4 samples.

Results

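The 53 genes described here encode the cytosolic factors that start, drive, end and recycle translation in human cells. They were chosen by gene symbol from a fixed list, and all 53 symbols were found among the 60651 genes of the deposited annotation files. The list holds the complexes eIF2, eIF2B, eIF3, eIF4F and eEF1, and 23 factors that work beside them. Ribosome profiling, which sequences the RNA fragments that ribosomes protect from nuclease, was done once in each of 4 human leukemia lines. K562 is an erythroid-type line of chronic myeloid leukemia, and THP_1 is a line of acute monocytic leukemia. MOLM13 is an acute myeloid leukemia line of monocytic character, and HL60 is a myeloid line described as promyelocytic. The labels name no treatment or genetic change, and all lines were grown with fetal bovine serum and lysed in the presence of cycloheximide, which arrests elongating ribosomes. With 1 library per line, no difference between lines has a replicate check and no p-value is given.

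Initiation begins when eIF2, charged with GTP and the initiator tRNA, joins the small ribosomal subunit together with eIF1, eIF1A, eIF3 and eIF5, and eIF2B recharges eIF2 after each round. The cap-binding complex eIF4F brings the mRNA, the small subunit scans to a start codon, and eIF5B joins the large subunit. eEF1A then delivers aminoacyl-tRNAs, eEF2 moves the ribosome along, eRF1 and eRF3 release the finished protein, and ABCE1 splits the ribosome. Many mRNAs of the translation machinery begin with a 5′ terminal oligopyrimidine (TOP) tract, through which mTOR signalling controls their translation.

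The deposited values were transcript TPM, that is transcripts per 1000000, which is a level per length. TPM was summed per gene and scaled between libraries, and this scaled TPM is the level used below unless another is named. Scaled aligned bases are the share of a gene in the aligned bases of a library, not divided by length. Coding exon density is the coverage per base of exons that lie wholly in coding sequence, which is not divided by transcript length. Exons that are only partly coding are left out, so this measure can still depend on which transcripts the signal was given to. Depth ran from 344.2 megabases in the library labelled MOLM13 to 973.1 megabases in HL60, with 472.5 in K562 and 678.3 in THP_1, with footprints of about 29 bases. Erythroid markers summed to 14872 TPM in K562 and to at most 17.3 TPM in the other 3, and myeloid granule genes summed to 8243 TPM in THP_1 and 9249 TPM in HL60. The library labelled MOLM13 held 32.1 TPM of granule genes. Of the T cell genes read, CD3D had 890.6 TPM there, CD3E 12.4 TPM and CD3G a listed 0. FLT3 was listed at 0 there, but also in K562 and HL60, and had 1.8 TPM in THP_1. FLT3 thus does not set this library apart. The name of the file that holds this library differs from its label. Whether the label is right could not be settled, and the values of this library are given under it.

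The transcription starts of these genes show the TOP tract directly. In RefSeq promoter sequences on GRCh38.p14, which were at hand for 43 of the 53 members, 11 members (25.6%) had a C at the annotated start followed by at least 4 further pyrimidines, read on the sense strand. The same holds for 960 of 15180 protein-coding genes (6.32%). Among the members with a known TOP tract that had a sequence, 5 of 6 held it, and EEF1G did not. The windows below run from 10 bases before the start to 20 bases from it. Capitals mark the pyrimidine run. They are shown because the elongation factors, a PCI/MPN subunit of eIF3 and the helicase cofactor eIF4B share it.
EEF1A1, chr6:73521013-73521042, minus strand: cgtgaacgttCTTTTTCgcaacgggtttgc
EEF1B2, chr2:206159885-206159914, plus strand: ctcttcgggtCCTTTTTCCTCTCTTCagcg
EEF2, chr19:3985444-3985473, minus strand: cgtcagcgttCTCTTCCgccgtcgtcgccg
EIF3F, chr11:7987327-7987356, plus strand: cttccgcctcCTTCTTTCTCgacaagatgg
EIF4B, chr12:53006446-53006475, plus strand: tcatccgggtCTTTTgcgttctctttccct
Of 37 members with a sequence that were not on the list of known TOP genes, 6 had such a run. They were EIF2D, EIF2S3, EIF3D, EIF3K, EIF3M and EIF4A2. The longest of these was that of EIF3D, with 10 pyrimidines, and EIF3K, shown as an example, had a run of 8 pyrimidines at its start.
EIF3K, chr19:38619178-38619207, plus strand: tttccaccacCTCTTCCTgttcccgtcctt
The 11 members with such a run had a median over genes of 172 for the mean TPM of the 4 lines, against 69.5 for the 32 without. The match describes these letters and is no test of control by mTOR.

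Start codons set apart 1 member. In GENCODE 29 transcripts 52 of 53 members began their coding sequence with ATG, and EIF4G2, a relative of eIF4G that lacks the cap-binding subunit's docking site, began with GTG, the start it is known for. The stretches below hold 15 bases on either side of the boundary before the start codon, with the start codon in capitals. EIF1, the guardian of start codon choice, is known to have its own start codon in a weak context.
EIF4G2, chromosome 11: tgtcaagccgccaaaGTGgagagtgcgatt
EIF4G1, chromosome 3: gtggcaccaaatgaaATGaacaaagctcca
EIF1, chromosome 17: aaggaatcgtatcgtATGtccgctatccag
The copies EIF1 and EIF1B differ at 61 of 339 coding bases (82.0% identity), 4 of them in the first 60 bases shown here in capitals. No coding 29-base stretch of EIF1B occurs in another gene, and the 44.1% of those of EIF1 that do lie in pseudogenes, so fragments of this length tell the pair apart.
EIF1, chromosome 17: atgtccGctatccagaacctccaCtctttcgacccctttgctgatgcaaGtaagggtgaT
EIF1B, chromosome 3: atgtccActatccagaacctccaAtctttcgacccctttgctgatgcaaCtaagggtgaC
A copy that short fragments cannot tell apart over most of its length is that of EEF1A1. EEF1A1 and its pseudogene EEF1A1P5 on chromosome 9 differ at 4 of 1386 bases (99.7% identity), and the first 60 bases are the same in both.
EEF1A1, chromosome 6: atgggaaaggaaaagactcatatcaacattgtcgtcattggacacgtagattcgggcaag

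The 53 genes held 2.12% of the aligned bases of nuclear protein-coding genes in K562, 1.48% in THP_1, 1.72% in the MOLM13-labelled library and 1.81% in HL60. Their median level was 100.3 TPM in K562, 98.4 in THP_1, 78.5 in the MOLM13-labelled library and 74.3 in HL60, where the median protein-coding gene with at least 1 TPM in any line had 6.86 TPM in K562, 8.09 in THP_1, 8.35 in the MOLM13-labelled library and 6.31 in HL60. In the 4 lines 33 to 38 members stood among the top 10% of protein-coding genes. EEF2, the translocase that moves the ribosome by a codon, was the highest member in each line, with 957.9 TPM in K562, 586.7 in THP_1, 733.5 in the MOLM13-labelled library and 1225 in HL60. It alone held 12.1% to 19.5% of the members' aligned bases. The next by mean level were EIF3K with 647.0, EIF5A with 551.0, EIF4A1 with 548.0 and EIF3M with 415.0 TPM. At the other end EIF2S2 was listed at 0 in all 4 lines, and EIF3C, EIF4EBP2, EEF2K and EIF1AX had mean levels under 6 TPM. TPM is divided by transcript length, untranslated parts included. By mean coding exon density EIF3C had 0, EIF4EBP2 44.8, EEF2K 17.2 and EIF1AX 95.7.

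**Figure D1:**
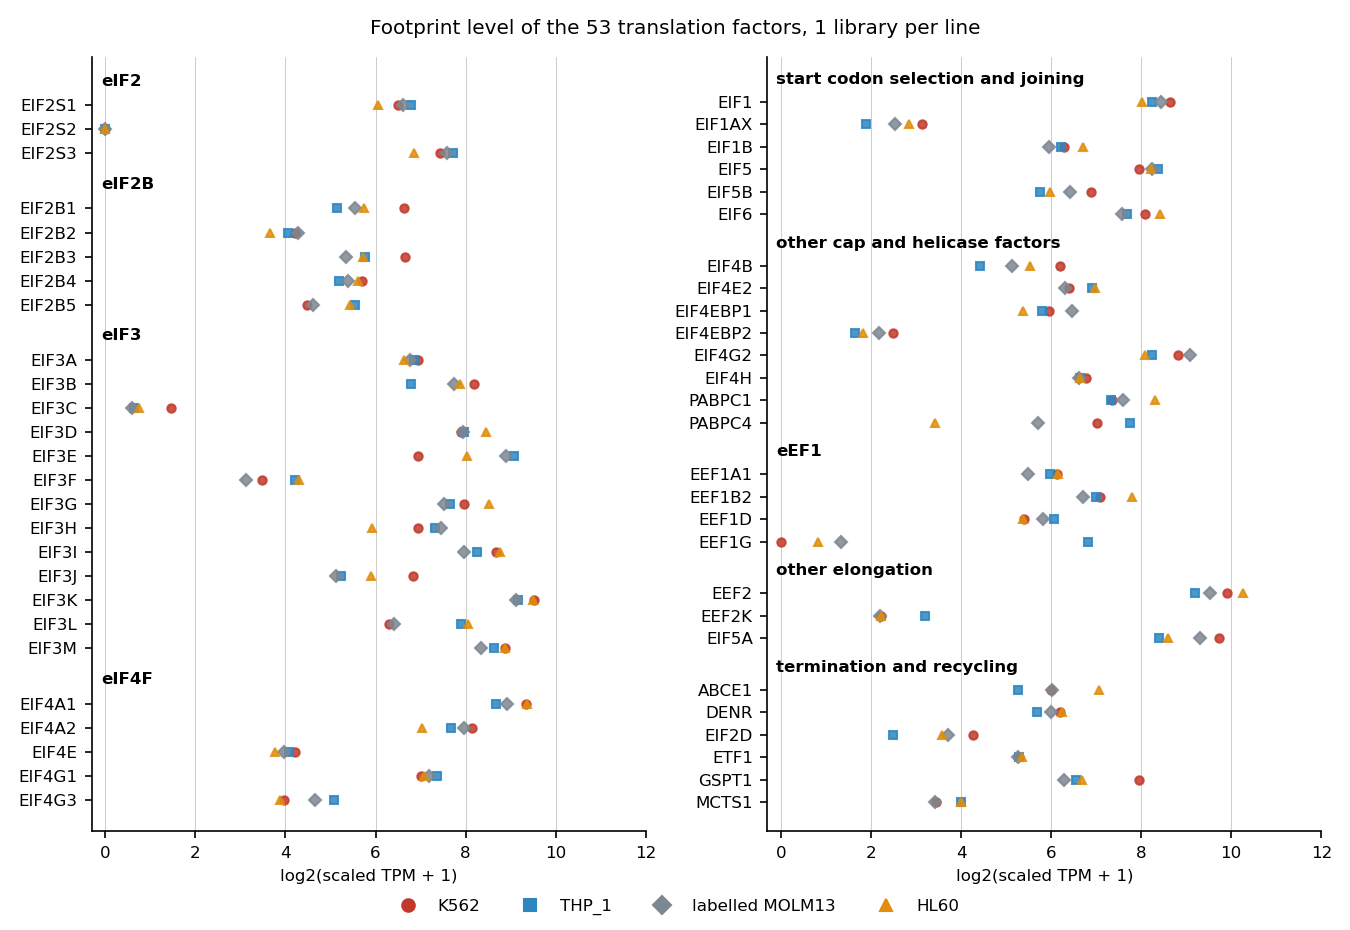
Scaled TPM of each member on a log2(value + 1) axis, with 1 point per cell line and members grouped by complex or step. For many members the 4 points lie close together. PABPC4 and EEF1G spread widest, and EIF2S2 sits at 0 in all 4 lines.

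Similar levels in the 4 lines were more frequent among members than among protein-coding genes, but were not shared by most members on every measure. On the log2(scaled TPM + 1) scale the 4 levels lay within 1 log2 unit for 27 of the 51 members (52.9%) that had at least 600 aligned bases in each line. The same was true of 33.6% of the 7681 protein-coding genes with that depth. The added 1 narrows the range at low levels. Of these 27 members, EIF3C differed 3.41-fold over the lines in TPM itself, EEF2K 2.25-fold and EIF4EBP2 2.16-fold, and the others by less than a factor of 2. Protein-coding genes of higher level are more even, and at 10 TPM or more in each line the shares were 23 of 43 members (53.5%) and 45.5% of 3423 genes. By scaled aligned bases it was again 27 of 51 members, against 36.6% of genes, and by coding exon density 21 of 51 (41.2%), against 30.4%. EIF3C counts among these 21 only because its coding exon density was 0 in all 4 lines, which says nothing of evenness. The median range over the lines was 0.98 log2 units for the members and 1.30 for protein-coding genes. The release factor eRF1, encoded by ETF1, which reads all 3 stop codons, was the most even by TPM, with 37.2 TPM in K562, 38.0 in THP_1, 37.3 in the MOLM13-labelled library and 40.2 in HL60. EIF4H, a stimulator of the helicase eIF4A, spanned 97.0 to 109.1 TPM, and EIF3A, the scaffold of eIF3, spanned 97.9 to 122.6 TPM. Over the lines the coding exon density differed 1.59-fold for ETF1, 2.16-fold for EIF4H and 1.24-fold for EIF3A, so EIF4H was not within 1 log2 unit on that measure. These 3 were chosen after their values were seen.

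A member counted as high when it exceeded all 3 other lines by 1 or more on the log2(scaled TPM + 1) scale, and as low when it fell short of all 3 by as much. In K562 1 of 51 members was high (GSPT1) where 6.81% of protein-coding genes were, and 1 of 51 was low (EIF3E) where 10.6% were. In THP_1 1 of 52 was high (EEF1G; all protein-coding genes 9.57%) and 1 of 51 was low (EIF2D; 2.97%). In the MOLM13-labelled library none of 51 was high or low, against 7.95% and 4.97% of protein-coding genes. In HL60 1 of 51 was high (ABCE1; 4.99%) and 2 of 51 were low (EIF3H and PABPC4; 8.26%). Of these 7 calls, 3 were made by all 3 measures: PABPC4 low in HL60, EIF2D low in THP_1 and EEF1G high in THP_1. In each of these comparisons by TPM the share of members called, 3.92% at most, was under that of protein-coding genes. These shares were not matched for level, and the members stood far above the median protein-coding gene. Of the protein-coding genes called low in K562, 68.8% were listed at 0 there. A single member is 1.96% of 51, so the lower shares are not read as a trait of the factors. Without the MOLM13-labelled library the calls in the other 3 lines came to 13, and the share of protein-coding genes was not computed for that setting.

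**Figure D2:**
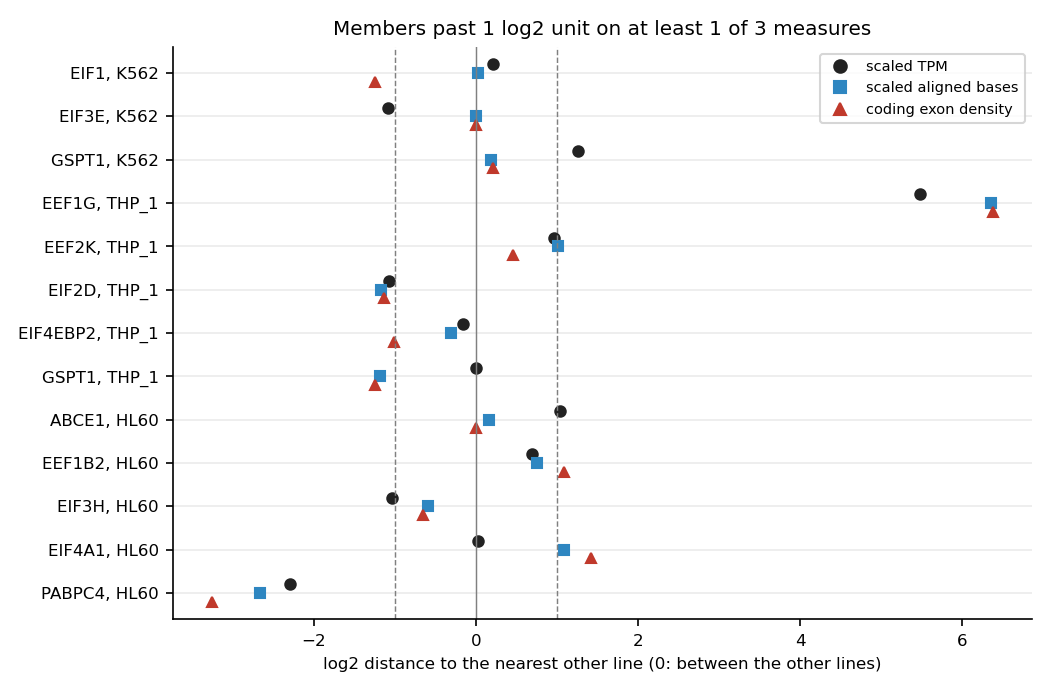
Log2 distance of a member in a line to the nearest of the other 3 lines, for the 13 pairs of member and line past 1 log2 unit on at least 1 of 3 measures; dashed lines mark 1 log2 unit and 0 means that the line lay between the others. PABPC4 in HL60, EIF2D in THP_1 and EEF1G in THP_1 lie past the line on all 3 measures, and the other 10 pairs on 1 or 2 of them.

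After EEF1G, PABPC4 had the widest range over the lines. It lies at chr1:39560709-39576790 on the minus strand and encodes a poly(A)-binding protein that was first described in activated T cells and bridges the mRNA tail to eIF4G. It had 9.72 TPM in HL60 (95% Poisson interval 9.07 to 10.4, counting error only), against 128.2 in K562, 213.8 in THP_1 and 51.6 in the MOLM13-labelled library. HL60 was thus below every other line, and the other 3 also differed among themselves. The distance of HL60 to the nearest line was -2.30 log2 units by TPM, -2.67 by aligned bases and -3.26 by coding exon density. Its widespread relative PABPC1, the main poly(A)-binding protein of most cells, had 315.7 TPM in HL60, against 162.0 in K562, 159.4 in THP_1 and 192.9 in the MOLM13-labelled library. HL60 was the highest line for PABPC1 and the lowest for PABPC4, and for PABPC1 the distance was under 1 log2 unit. Of the coding 29-base stretches of PABPC4 8.46% occur in another gene, against 51.4% of those of PABPC1.

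EIF2D was the other member low on every measure. It lies at chr1:206571292-206612465 on the minus strand and encodes a factor that can deliver tRNA to the small subunit without GTP and takes part in recycling. THP_1 had 4.62 TPM (3.99 to 5.32), against 18.3 in K562, 12.1 in the MOLM13-labelled library and 10.8 in HL60. The distance to the nearest line was -1.08 by TPM, -1.17 by aligned bases and -1.14 by coding exon density. The call is just inside the rule, and with a pseudocount of 5 the distance was -0.72. DENR and MCTS1, whose proteins form a pair that resembles eIF2D and acts at the same step, were not called low in THP_1. DENR had 50.5 TPM in THP_1, against 72.8 in K562, 62.6 in the MOLM13-labelled library and 74.3 in HL60. THP_1 was the lowest line for DENR on all 3 measures, with a distance of -0.30 log2 units by TPM, -0.74 by aligned bases and -0.66 by coding exon density, each short of the rule. MCTS1 had 14.9 TPM in THP_1, against 9.89 in K562, 9.75 in the MOLM13-labelled library and 15.0 in HL60.

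The other 4 calls by TPM were not made by coding exon density. GSPT1 encodes the release factor eRF3a, the GTPase partner of eRF1. It had 246.0 TPM in K562, against 93.2 in THP_1, 77.4 in the MOLM13-labelled library and 102 in HL60. Its TPM-weighted mean transcript length was 2241 bases in K562 and 2174 in THP_1, but 6491 in the MOLM13-labelled library and 4333 in HL60. In coding exon density GSPT1 had 184.5 in THP_1, against 517.9 in K562, 446.9 in the MOLM13-labelled library and 438.0 in HL60. By that measure, and by aligned bases, THP_1 was low and K562 was not high.

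EIF3E, a PCI subunit of eIF3 on chromosome 8, had 122.6 TPM in K562, against 540.5 in THP_1, 476.3 in the MOLM13-labelled library and 261.1 in HL60. The mean transcript length was 5141 bases in K562, where a 7938-base transcript led, and 1788 to 2183 in the other 3. Its coding exon density was 691.1 in K562, against 1149 in THP_1, 838.0 in the MOLM13-labelled library and 681.3 in HL60, so K562 lay within the range of the others. ABCE1, the ATPase that splits the ribosome after termination, had 131.8 TPM in HL60, against 62.4 in K562, 37.5 in THP_1 and 63.6 in the MOLM13-labelled library. Its coding exon density was 140.2 in HL60, against 156.2 in K562, 100.4 in THP_1 and 101.3 in the MOLM13-labelled library, so HL60 was not the highest. EIF3H, an MPN subunit of eIF3 on chromosome 8, had 59.7 TPM in HL60, against 123.0 in K562, 159.9 in THP_1 and 174.0 in the MOLM13-labelled library. HL60 stayed the lowest for EIF3H by coding exon density, at 245.9 against 387.7 to 673.1, with a distance of -0.66 that is under the rule.

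Aligned bases and coding exon density also made calls that TPM did not. By aligned bases, THP_1 had 2 of 52 members high (EEF1G, EEF2K; all protein-coding genes 10.6%) and 2 of 51 low (EIF2D, GSPT1; 4.47%), and HL60 had 1 high (EIF4A1; 5.77%) and 1 low (PABPC4; 11.0%), with none in K562 (7.66% high, 12.2% low) or the MOLM13-labelled library (8.23%, 6.39%). By coding exon density K562 had none high (7.52%) and EIF1 low (12.5%). THP_1 had EEF1G high (10.1%) and EIF2D, EIF4EBP2 and GSPT1 low. These 3 are 5.88% of 51 members, above the 4.90% of protein-coding genes. HL60 had EEF1B2 and EIF4A1 high (6.44%) and PABPC4 low (9.58%). In the MOLM13-labelled library none was called on that measure (8.73% and 6.53%). Of 52 members with signal, 15 had mean transcript lengths that differed by over 1.5-fold between lines, and 24 of 51 had the same leading transcript in all 4.

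EEF1G and EIF4A1 each overlap other annotated genes that carry their coding sequence. EEF1G, the gamma subunit of eEF1B at chr11:62559596-62574086 on the minus strand, had 111.8 TPM in THP_1, was listed at 0 in K562, and had 1.53 TPM in the MOLM13-labelled library and 0.78 in HL60. The readthrough gene AP002990.1, chr11:62559603-62591531, shares 99.2% of the coding 29-base stretches of EEF1G. It had 14.0 TPM in THP_1, against 40.8 in K562, 50.0 in the MOLM13-labelled library and 64.4 in HL60, and THP_1 was the lowest line for it. Summed over both genes, scaled aligned bases were 197.1 per 1000000 in THP_1, against 185.2 in K562, 211.5 in the MOLM13-labelled library and 322.4 in HL60. The range over the lines was 7.15 log2 units for EEF1G and 0.80 for the sum, and THP_1 was then inside the range of the others. Exons inside the bounds of EEF1G held only a part of the aligned bases of AP002990.1. That part was 59.6% in K562, 40.8% in THP_1, 56.3% in the MOLM13-labelled library and 56.2% in HL60. The sum thus also holds signal from outside EEF1G. Summed TPM left THP_1 the highest, with a distance of 0.94 log2 units that is under the rule.

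EIF4A1, the DEAD-box helicase of eIF4F at chr17:7572824-7579006 on the plus strand, shared its sequence in the same way. All of its coding 29-base stretches occur in SENP3-EIF4A1, chr17:7563287-7578715, and 93.4% in AC016876.2, chr17:7572826-7582024. EIF4A1 had 729.3 scaled aligned bases (per 1000000) in HL60, against 342.6 in K562, 255.3 in THP_1 and 292.8 in the MOLM13-labelled library. SENP3-EIF4A1 held a further 328.5 in K562, and AC016876.2 held 347.5 in THP_1 and 240.5 in the MOLM13-labelled library. The sum of all 3 genes was 780.6 in HL60, against 705.0 in K562, 602.8 in THP_1 and 533.3 in the MOLM13-labelled library. The range was 0.55 log2 units for the sum and 1.51 for EIF4A1 alone. For EIF4A1 the part of the sum that lies outside the gene was not measured. For both loci, how signal on the shared sequence divides between the single gene and the overlapping genes cannot be told with these files.

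**Figure D3:**
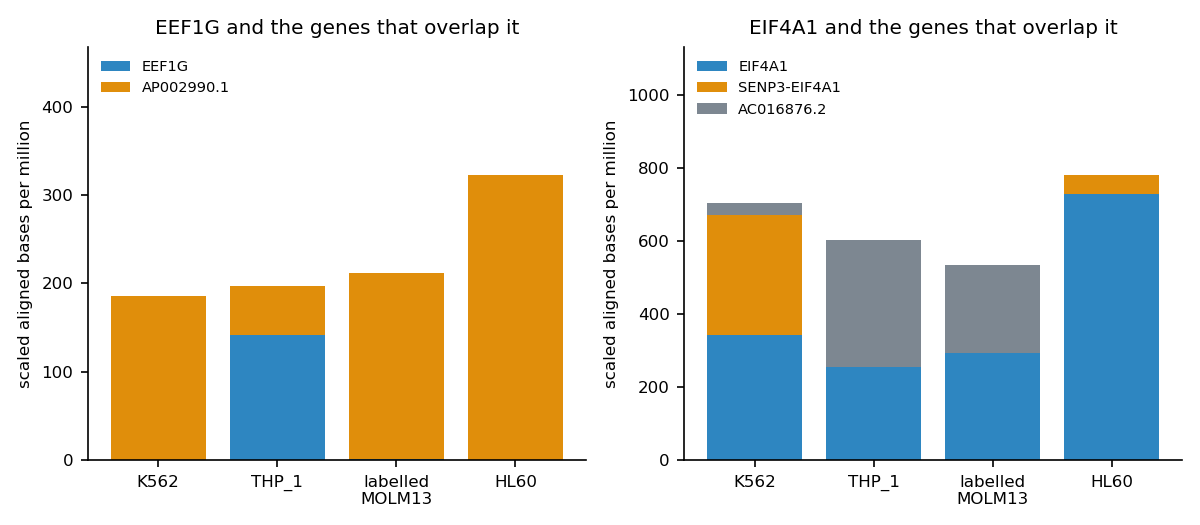
Scaled aligned bases per 1000000 in each line, stacked over EEF1G and the gene that overlaps it (left) and EIF4A1 and the 2 genes that overlap it (right), each as annotated in the files. EEF1G holds a visible share in THP_1 only, whereas the height of the stack differs 1.74-fold over the lines for EEF1G and 1.46-fold for EIF4A1.

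In the ternary complex, eIF2 had 2 of its 3 subunits with signal. EIF2S1, the alpha subunit that stress kinases phosphorylate, had 89.7 TPM in K562, 109.9 in THP_1, 96.1 in the MOLM13-labelled library and 65.8 in HL60. EIF2S3, the gamma subunit that binds GTP and tRNA, had 171.5 TPM in K562, 209.7 in THP_1, 192.3 in the MOLM13-labelled library and 114.6 in HL60. HL60 was the lowest line for both by TPM, whereas by coding exon density K562 was the lowest for EIF2S1 and the MOLM13-labelled library for EIF2S3. The eIF2 median difference of HL60 from the mean of the other 3 was -0.65 log2 units, past the 0.5 used as a call. In coding exon density that difference was -0.19. EIF2S2, the beta subunit at chr20:34088309-34112243, was listed at 0 on all its exons in every line. Its 7 named pseudogenes summed to 2.74 to 8.57 TPM, and 80.8% of its coding 29-base stretches occur in a gene elsewhere. Since the other subunits were abundant, this 0 is given as listed and not as absence.

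The subunits of eIF2B, the exchange factor of eIF2, summed to less TPM than the 2 measured subunits of eIF2 in THP_1 and the MOLM13-labelled library, and to more in K562 and HL60. By coding exon density HL60 went the other way, at 554.8 for eIF2B and 591.8 for eIF2, and the other lines kept their order. EIF2S2 adds nothing to these sums, so they give no ratio of the complexes. EIF2B3 was the highest by mean level, with 100.3 TPM in K562, 53.1 in THP_1, 39.4 in the MOLM13-labelled library and 51.7 in HL60. EIF2B2 was the lowest, with 17.6 TPM in K562, 15.7 in THP_1, 18.3 in the MOLM13-labelled library and 11.7 in HL60. In each line the subunit of highest TPM exceeded the lowest 2.51-fold to 5.71-fold. By coding exon density the order differed, and EIF2B1 was the highest in each line. The lowest on that measure was EIF2B5 in K562 and the MOLM13-labelled library, EIF2B4 in THP_1 and EIF2B2 in HL60. EIF2B1, EIF2B2 and EIF2B3 have no coding 29-base stretch in common with another gene, and EIF2B1 had 436.7 coding exon density in K562, against 161.2 to 253.3 in the other 3. K562 was above the other lines for EIF2B1 and EIF2B3, by 0.89 and 0.91 log2 units in TPM, both just under the rule; they were chosen after their values were seen. The eIF2B median difference was 0.29 in K562, -0.15 in THP_1, -0.29 in the MOLM13-labelled library and -0.03 in HL60, and none was called. Its sign turned in K562 in deposited TPM without further scaling (-0.04), in THP_1 by coding exon density (0.037), and in HL60 in deposited TPM (0.062), by aligned bases (0.153) and by coding exon density (0.097).

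eIF3, the 13-subunit organizer of the initiation complex, did not show equal levels over its subunits. By TPM EIF3K led in each line, with 736.3 TPM in K562, 576.5 in THP_1, 558.8 in the MOLM13-labelled library and 716.5 in HL60. By coding exon density EIF3I led in K562 (1150), EIF3E in THP_1 (1149) and the MOLM13-labelled library (838.0), and EIF3K in HL60 (1348). EIF3C was the lowest, with 1.75 TPM in K562 and 0.51 to 0.68 in the other 3, and had no signal on exons wholly in coding sequence in any line. It shares 99.5% of its coding 29-base stretches with its near-identical copy EIF3CL, which had at most 0.33 TPM. EIF3C is a core subunit of the octamer, and its level is uncertain for this reason. Among the other 12 subunits EIF3F was the lowest by coding exon density in each line, and the highest subunit exceeded it 18.0-fold in K562, 10.4-fold in THP_1, 14.9-fold in the MOLM13-labelled library and 7.97-fold in HL60. EIF3F shares 69.1% of its 29-base stretches with genes elsewhere. EIF3I, EIF3E, EIF3K and EIF3M all had mean coding exon densities over 680.

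**Figure D4:**
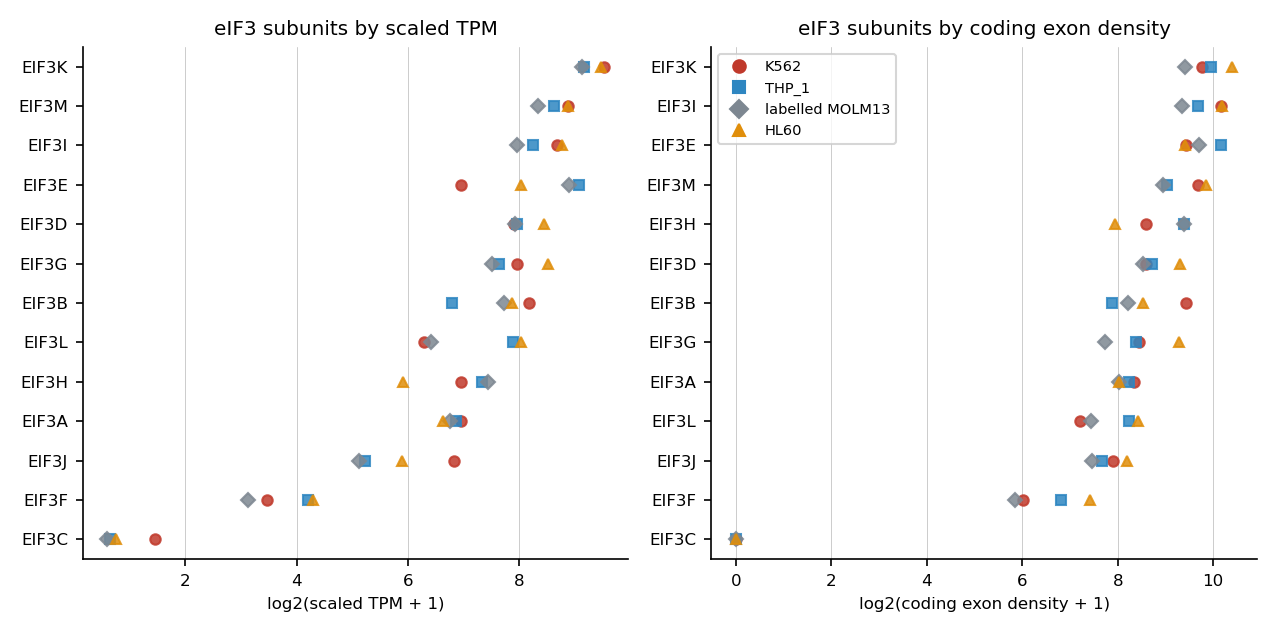
Level of the 13 eIF3 subunits in each line on log2(value + 1) axes, by scaled TPM (left) and coding exon density (right), ordered by mean level. On coding exons EIF3E no longer has K562 apart, and EIF3C stands at 0.

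The subunits of eIF3 outside its PCI/MPN octamer are EIF3B, EIF3D, EIF3G, EIF3I and EIF3J. Their median difference from the other 3 lines was 0.47 in HL60, with 5 of 5 higher, and 0.35 in K562 with 4 of 5 higher. It was -0.35 in THP_1 with 0 of 5 higher, and -0.54 in the MOLM13-labelled library with 1 of 5 higher, which is past the call of 0.5. That last value was -0.53 by aligned bases and past the call there too, but -0.46 by coding exon density, -0.38 after rescaling TPM over protein-coding genes and -0.315 in deposited TPM. In HL60 the value was past the call by aligned bases (0.58) and by coding exon density (0.505). The 8 octamer subunits had medians of 0.13 in K562, 0.32 in THP_1, -0.31 in the MOLM13-labelled library and 0.03 in HL60. The octamer median of K562 turned to -0.21 in deposited TPM, -0.11 by aligned bases and -0.31 by coding exon density, and that of HL60 to -0.14 after rescaling. By coding exon density it was past the call in the MOLM13-labelled library (-0.52) and in HL60 (0.63). For all 13 the medians were 0.20 in K562, -0.14 in THP_1, -0.35 in the MOLM13-labelled library and 0.27 in HL60, none of these 4 called by TPM. The K562 value turned to -0.14 in deposited TPM and to -0.095 by coding exon density, and the THP_1 value to 0.012 by coding exon density. By coding exon density the eIF3 median of HL60 was 0.57, past the call.

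In eIF4F and its partners the helicase exceeded the cap-binding protein in every line. EIF4A1 had 646.1 TPM in K562, 407.5 in THP_1, 480.0 in the MOLM13-labelled library and 658.7 in HL60. EIF4E, which binds the cap, had 17.5 TPM in K562, 16.0 in THP_1, 14.7 in the MOLM13-labelled library and 12.7 in HL60. In coding exon density EIF4A1 exceeded EIF4E in each line as well, at 232.5 to 795.1 against 38.3 to 83.1, although 88.8% of the coding 29-base stretches of EIF4E occur in a gene elsewhere. EIF4A2, the paralogue of that helicase, had 283.0 TPM in K562, 204.9 in THP_1, 247.8 in the MOLM13-labelled library and 130.1 in HL60, the lowest line by TPM. By aligned bases EIF4A2 differed 1.11-fold over the lines, and by coding exon density K562 was the lowest line, at 124.2 against 172.8 in HL60. The cap-binding relative EIF4E2, a repressor of translation, exceeded EIF4E in each line by TPM, with 83.8 TPM in K562, 119.8 in THP_1, 78.5 in the MOLM13-labelled library and 125.3 in HL60. Of the scaffolds, EIF4G1 had 127.1 TPM in K562, 164.3 in THP_1, 145.7 in the MOLM13-labelled library and 133.2 in HL60 and was within 1 log2 unit by all 3 measures. EIF4G3 had 14.6 TPM in K562, 32.7 in THP_1, 24.2 in the MOLM13-labelled library and 13.6 in HL60. No 29-base coding stretch of either scaffold occurs in another gene, so their order does not depend on shared sequence.

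The eIF4E-binding proteins, which mTOR phosphorylates and which block eIF4E when unphosphorylated, were unequal. EIF4EBP1, on chromosome 8, had 60.7 TPM in K562, 54.5 in THP_1, 87.7 in the MOLM13-labelled library and 40.7 in HL60. EIF4EBP2 had 4.63 TPM in K562, 2.15 in THP_1, 3.53 in the MOLM13-labelled library and 2.51 in HL60, on a single listed transcript of 7491 bases of which 360 are coding. By coding exon density EIF4EBP2 had 7.0 in THP_1, against 81.7 in K562, 75.5 in the MOLM13-labelled library and 15.1 in HL60. THP_1 and HL60 were thus low and the other 2 high on that measure, and THP_1 was called low. EIF4G2 and EIF4B were chosen after their values were seen. EIF4G2 had 452 TPM in K562, 300.0 in THP_1, 545.6 in the MOLM13-labelled library and 271.7 in HL60, but by aligned bases it differed 1.07-fold over the lines. EIF4B ran from 20.4 TPM in THP_1 to 72.8 in K562, whereas by aligned bases and by coding exon density HL60 was the highest line and the MOLM13-labelled library the lowest.

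Among the factors of start codon choice and subunit joining, EIF1 had 400.3 TPM in K562, 299.4 in THP_1, 345.0 in the MOLM13-labelled library and 257.8 in HL60. Its copy EIF1B had 76.9 TPM in K562, 73.8 in THP_1, 61.0 in the MOLM13-labelled library and 103.5 in HL60, lower than EIF1 in each line. In coding exon density EIF1 had 305.1 in K562, against 728.0 in THP_1, 1002 in the MOLM13-labelled library and 909.6 in HL60, which is the call of low in K562 given above. By TPM K562 was the highest line for EIF1, so the 2 measures differ in direction. EIF5, the GTPase activator of eIF2, ran from 246.0 to 328.6 TPM, EIF5B from 53.3 to 117.6, and EIF6, which keeps the large subunit free, from 191.0 to 341.9. EIF1AX ran from 2.7 to 7.83 TPM with a mean transcript length of 4335 to 4414 bases, and 86.4% of its coding 29-base stretches occur in a gene elsewhere.

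In elongation, eEF2 far exceeded its kinase. EEF2K, which phosphorylates and halts eEF2, had 8.13 TPM in THP_1, against 3.69 in K562, 3.61 in the MOLM13-labelled library and 3.70 in HL60. THP_1 was above every other line, by 0.96 log2 units in TPM, 1.01 in aligned bases and 0.46 in coding exon density, and only the aligned bases met the rule. EIF5A, which relieves ribosomes stalled at prolines and carries the modified residue hypusine, had 843.6 TPM in K562, 336.7 in THP_1, 636.2 in the MOLM13-labelled library and 387.5 in HL60. EEF1B2, the exchange factor of eEF1A, was the highest of eEF1 by mean TPM, with 135.8 TPM in K562, 126.4 in THP_1, 102.9 in the MOLM13-labelled library and 220.3 in HL60. By coding exon density EEF1B2 had 293.9 in HL60, against 112.7 in K562, 137.8 in THP_1 and 98.5 in the MOLM13-labelled library. On that measure EEF1A1 was the highest of eEF1 in each line, at 228.2 to 334.2. EEF1D, another exchange subunit of eEF1B, ran from 40.8 TPM in HL60 to 66.3 in THP_1, whereas by coding exon density K562 was the lowest line and the MOLM13-labelled library the highest.

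EEF1A1, which is among the most abundant proteins of most cells, stood at 68.6 TPM in K562, 62.0 in THP_1, 43.8 in the MOLM13-labelled library and 70.6 in HL60. Its 39 named pseudogenes summed to more than the gene in each line, with 216.3 TPM in K562, 224.3 in THP_1, 165.6 in the MOLM13-labelled library and 199.7 in HL60. Of its coding 29-base stretches 98.7% occur in a pseudogene. How the mapping of fragments with several matches was set is not given in the sources used here, so the level of EEF1A1 is uncertain. Over all members, the 14 with at least 50% of coding 29-base stretches in a gene elsewhere had a median coding exon density of 126.6, against 240.3 for the other 39.

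Over the complexes, 2 of 20 median differences were called by TPM: eIF2 in HL60, given above, and eEF1 in the MOLM13-labelled library, at -0.60. The eEF1 median was -0.21 in K562, 0.30 in THP_1 and -0.04 in HL60. The K562 value turned to 0.033 after rescaling, and the HL60 value to 0.05 in deposited TPM, 0.039 by aligned bases and 0.083 by coding exon density. Without the members whose sequence is mostly shared with genes elsewhere, the eEF1 value of the MOLM13-labelled library was 0.19 and rested on EEF1D alone. The eIF4F medians were 0.26 in K562, 0.10 in THP_1, 0.05 in the MOLM13-labelled library and -0.32 in HL60. The K562 value turned to -0.65 by coding exon density, which is past the call on the other side, and to -0.056 in deposited TPM. The THP_1 value turned to -0.107 after rescaling, that of the MOLM13-labelled library to -0.061 by aligned bases, and that of HL60 to 0.021 by coding exon density. Over the 52 members with at least 1 TPM in any line, the median difference was 0.21 in K562, -0.14 in THP_1, -0.11 in the MOLM13-labelled library and 0.06 in HL60. These directions rested on the scaling in 3 lines: K562 turned to -0.122 in deposited TPM, the MOLM13-labelled library to 0.092 in deposited TPM and 0.037 after rescaling, and HL60 to -0.123 after rescaling. Over 11810 protein-coding genes it was -0.10 in K562, 0.05 in THP_1, 0.12 in the MOLM13-labelled library and -0.21 in HL60. The 10 known TOP members had medians of -0.21 in K562, 0.30 in THP_1, -0.26 in the MOLM13-labelled library and 0.29 in HL60, and none of these was called. The K562 value turned to 0.033 after rescaling and was past the call in deposited TPM, at -0.548.

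Untranslated exons carried footprints in some members. For 25 members with exons wholly upstream of the coding part, the coverage of these 5′ exons was divided by that of coding exons. The median ratio over all genes with such exons was 0.0088 in K562, 0.14 in THP_1, 0.024 in the MOLM13-labelled library and 0.10 in HL60, and a ratio over 1 was found in 14.0% of genes in K562, 22.8% in THP_1, 12.6% in the MOLM13-labelled library and 18.3% in HL60. The member medians were 0.094 in K562, 0.080 in THP_1, 0.029 in the MOLM13-labelled library and 0.066 in HL60. Ratios over 1 were found for 3 of 24 members in K562, 6 of 25 in THP_1, 1 of 24 in the MOLM13-labelled library and 5 of 24 in HL60. DENR was the highest member in all 4 lines, with ratios of 3.94 in K562, 13.8 in THP_1, 2.08 in the MOLM13-labelled library and 11.7 in HL60. Its 127 bases of 5′ exon held 34.8% of the aligned bases of the gene in K562, 64.8% in THP_1, 29.8% in the MOLM13-labelled library and 57.5% in HL60. THP_1 and HL60 were higher than the other 2 lines for DENR, as they were for the median of all genes.

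EIF5, whose mRNA is known to carry upstream open reading frames that restrain it, had ratios of 0.55 in K562, 4.14 in THP_1, 0.48 in the MOLM13-labelled library and 2.21 in HL60. Its coding exon density was low where the ratio was high, at 39.1 in THP_1 and 59.8 in HL60, against 171.2 in K562 and 196.7 in the MOLM13-labelled library. DENR showed the same division, with a coding exon density of 31.9 in THP_1 and 51.1 in HL60, against 122.1 in K562 and 165.0 in the MOLM13-labelled library. A 704-base transcript led EIF5 in THP_1 (91.6% of its TPM) and HL60 (55.8%). In K562 (56.6%) and the MOLM13-labelled library (76.5%) a 723-base transcript led. The same transcript led DENR in all 4 lines. Its share of TPM was 86.7% in THP_1, 87.65% in HL60, 66.2% in K562 and 48.9% in the MOLM13-labelled library. By aligned bases EIF5 differed 1.33-fold over the lines and DENR 2.20-fold. ABCE1 had ratios of 1.02 in K562, 3.03 in THP_1, 0.92 in the MOLM13-labelled library and 1.80 in HL60. EEF2K had ratios of 1.46 in K562, 2.79 in THP_1, 0.38 in the MOLM13-labelled library and 3.07 in HL60. Coding coverage is also the divisor of the ratio, so the 2 measures are not independent. DENR, EIF5, ABCE1 and EEF2K were chosen after their values were seen. Whether the part of a library that lies on 5′ exons, or the transcript that the signal was given to, bears on these differences was not tested. For 3′ exons 13 members could be measured, and their median ratio was 0 in every line.

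**Figure D5:**
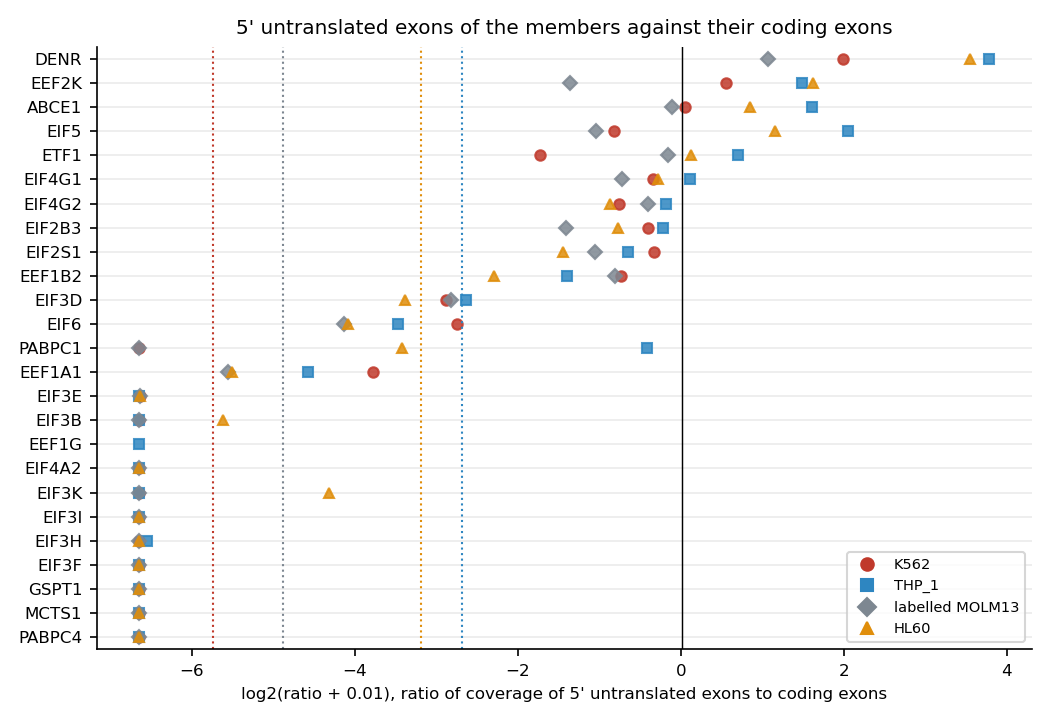
Ratio of the coverage of 5′ untranslated exons to that of coding exons for 25 members in each line, on a log2(ratio + 0.01) axis; dotted lines mark the median of all genes with such exons in each line and the solid line a ratio of 1. DENR lies to the right of the solid line in all 4 lines, and for DENR and EIF5 the THP_1 and HL60 points lie to the right of the other 2.

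Regulators and relatives of the factors were read from fixed lists, by TPM. A listed 0 is given below as listed and not as absence: among protein-coding genes that reached 600 aligned bases in all 3 other lines, 9.29% were listed at 0 in K562, 1.59% in THP_1, 4.49% in the MOLM13-labelled library and 2.91% in HL60. Of the 904 protein-coding genes called low in K562, 622 (68.8%) were listed at 0 there. Of the 6 eIF2 kinases and phosphatase subunits, 1 was low in K562, where 10.6% of protein-coding genes were, and 1 high in THP_1, where 9.57% were. EIF2AK3 (PERK, the kinase of endoplasmic reticulum stress) was listed at 0 in K562, against 2.58 TPM in THP_1, 5.20 in the MOLM13-labelled library and 2.50 in HL60. PPP1R15A (GADD34, which brings the phosphatase to eIF2) had 11.7 TPM in THP_1, against 4.39 in K562, 1.29 in the MOLM13-labelled library and 2.95 in HL60. Of 11 cap and mTOR regulators, 3 were low in K562, 2 of them listed at 0, and 1 was high there, against 10.6% low and 6.81% high among protein-coding genes. TSC1 and RHEB, an inhibitor and an activator of mTOR, were listed at 0 in K562, against 1.05 to 3.4 TPM for TSC1 and 6.70 to 10.9 TPM for RHEB in the other 3. PDCD4, which blocks eIF4A, had 22.8 TPM in K562, against 75.6 to 79.6 TPM in the other 3, and was not low by aligned bases. MKNK2, a kinase of eIF4E, had 20.0 TPM in K562, against 0.51 in THP_1, 0 as listed in the MOLM13-labelled library and 2.39 in HL60.

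Of the 4 PABP partners and helicases, DHX29, a helicase for structured leaders, was low in HL60 (all protein-coding genes 8.26%) at 6.09 TPM, against 15.6 to 23.2 TPM in the other 3. PAIP1 was high in the MOLM13-labelled library (7.95%) at 28.0 TPM, against 7.67 to 9.40, by TPM only. Of 10 enzymes that make hypusine on eIF5A or diphthamide on eEF2 or that modify eEF2 otherwise, DPH6, which completes diphthamide, was the single one called by TPM, low in THP_1 (2.97%) at 6.42 TPM, against 15.0 to 28.3. Neither of the 2 ribosome rescue factors was called.

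Among 12 other copies of the factor families, 5 of which reached 1 TPM, 4 genes were called by TPM. Over lines and directions, 2.97% to 10.6% of protein-coding genes were called. EEF1A2, the copy of eEF1A known from muscle and neurons, had 119.7 TPM in THP_1 and 2.41 in HL60, against 30.7 in K562 and 28.0 in the MOLM13-labelled library. It was called high in THP_1 and low in HL60. EEF1E1, an eEF1-related subunit of the multisynthetase complex, was low in THP_1 at 31.2 TPM, against 151.1 to 184.6. GSPT2, the second copy of eRF3, was high in K562 at 7.90 TPM, against 0.90 to 1.97, and EIF4EBP3 was listed at 0 in K562, against 3.57 to 17.2. Of 9 mitochondrial factors, MTIF3 and MTRF1L were low in K562, where 10.6% of protein-coding genes were. MTIF3, an initiation factor, was listed at 0 there, against 10.2 to 30.02 TPM, and MTRF1L, a release factor, had 0.15, against 1.53 to 7.72. MRRF, the recycling factor, was high in HL60 (all protein-coding genes 4.99%) at 45.0 TPM, against 19.3 in K562, 2.24 in THP_1 and 2.96 in the MOLM13-labelled library.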

How the data were processed

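Values came from StringTie annotation files of 4 libraries, 1 per cell line. Per the submitters' processing notes, the tools were StringTie 2.1.5, STAR 2.7.8a, Bowtie2 2.4.2 and Trim Galore 0.6.6, on hg38. Per the file headers, StringTie quantified GENCODE 37 transcripts with no strand option set; the handling of fragments with several matches is not given in the sources used here. The deposited TPM and FPKM per transcript and the deposited mean coverage per transcript and exon were made by the authors; FPKM was not used further, and read counts were not used here.

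TPM was summed per gene identifier and divided by a size factor, the median over 3751 genes (TPM 10 or more in every line) of a gene's TPM over its geometric mean. Factors were 0.837 (K562), 1.01 (THP_1), 1.12 (MOLM13) and 1.05 (HL60). Aligned bases are coverage times length, per 1000000 and scaled likewise. Coding exon density is the coverage of exons wholly in GENCODE 29 coding sequence (same build), divided by its sum over genes, per 1000000 and scaled likewise. Poisson intervals (95%) use aligned bases divided by the usual fragment length of 29 bases and cover counting error only.

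High and low calls need 600 aligned bases (20.7 fragments), in that line for high and in each of the other 3 for low; logs use a pseudocount of 1, and the same rule over nuclear protein-coding genes gives the background. Medians over lists use members with at least 1 TPM in any line and are called at 0.5. Named genes are those called, listed at 0, extreme in a complex, among the 5 highest, or 1 of 6 pairs of copies; others are named as chosen later. The members, lists and rules were chosen with earlier results of these data known. The call rule was tested on simulated data. Coding 29-base stretches were searched in all GENCODE 29 transcripts. Alternatives were other scalings, measures, pseudocounts, distances and minimums, and leaving out the library labelled MOLM13; summing EEF1G or EIF4A1 with overlapping genes and leaving out members with mostly shared sequence were chosen after seeing the data. Work used Python 3.11.15, NumPy 2.4.6, pandas 2.3.3 and Matplotlib 3.10.9.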

Additional observations from a re-analysis of the deposited data

How the results depend on the processing

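No paired analysis was possible because each line has 1 library. Where a call changed under an alternative, the cause was not tested. Depth was not the limit for most members, since 51 of 53 had at least 600 aligned bases in each line.

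The 7 calls by TPM became 6 with deposited TPM unscaled, 13 after rescaling over protein-coding genes, 6 by aligned bases, 9 with a pseudocount of 0.1, 4 with a pseudocount of 5, 13 without the library labelled MOLM13, 8 by coding exon density and 2 at a distance of 2 log2 units. In K562, where 1 was high and 1 low, 0 were high in deposited TPM, by aligned bases, by coding exon density and at 2 log2 units, 6 after rescaling, and 2 with a pseudocount of 0.1 and without the library labelled MOLM13. The low count there was 0 after rescaling, by aligned bases and at 2 log2 units, and 2 without the library labelled MOLM13. In THP_1, with 1 high and 1 low, 2 were high in deposited TPM, by aligned bases and with a pseudocount of 0.1, 3 without the library labelled MOLM13, and 0 with EEF1G summed with its readthrough gene or without mostly shared members. Its low count was 2 in deposited TPM and by aligned bases, 4 after rescaling, 3 without the library labelled MOLM13 and by coding exon density, and 0 with a pseudocount of 5 and at 2 log2 units. In HL60, with 1 high and 2 low, 0 were high in deposited TPM, after rescaling, with a pseudocount of 5 and at 2 log2 units, and 2 by coding exon density. Its low count was 1 in deposited TPM, by aligned bases, with a pseudocount of 5, by coding exon density and at 2 log2 units. The 27 members within 1 log2 unit were 8 within 0.5. Shares of protein-coding genes were computed only under the main rules, by TPM, aligned bases and coding exon density. The counts under the other alternatives have no such share beside them and give no result about the members.

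Among complex medians, aligned bases gave 0.589 for eIF2 in K562, -0.631 for eIF2 and -0.527 for eIF3 in the library labelled MOLM13, and -0.199 for eIF2 and 0.530 for eIF3 in HL60. Rescaling gave 0.543 for eIF2B and 0.514 for eIF4F in K562 and -0.509 for eIF4F in HL60. Coding exon density gave -0.650 for eIF4F and -0.929 for eEF1 in K562, -0.741 for eIF2B in the library labelled MOLM13, and -0.188 for eIF2 and 0.568 for eIF3 in HL60. For eEF1, K562 had -0.548 in deposited TPM and -0.794 by the mean, and THP_1 had 1.623 by the mean and 0.542 without mostly shared members. In the library labelled MOLM13 the eEF1 value was -0.378 in deposited TPM, -0.443 after rescaling, -0.329 by aligned bases, -0.496 with a pseudocount of 0.1 and -0.341 by coding exon density, all short of 0.5, and turned to 0.191 without mostly shared members. eIF2 in THP_1 was 0.544 without the library labelled MOLM13, and eIF4F in HL60 was -0.694 without mostly shared members. Of the other 316 values for counts and medians, 290 kept their direction and side, and 26 medians stayed short of 0.5 but took the other sign, 8 of them in deposited TPM, 7 by coding exon density, 4 after rescaling and 3 by aligned bases. One of these was eIF2 in K562, at -0.309 in deposited TPM, and another was eIF2 in the library labelled MOLM13, at -0.403 by coding exon density. Deposited TPM moved the median difference of 3423 genes by -0.332 in K562 and by 0.217 in the MOLM13-labelled library, and rescaling moved it by 0.244 in K562, -0.212 in THP_1, 0.158 in the MOLM13-labelled library and -0.186 in HL60. The alternatives for the eIF3 octamer, the other eIF3 subunits and the TOP members, sums with overlapping genes and the removal of mostly shared members were chosen after seeing the data.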
